A study of Mus musculus with 11 samples.

Results

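The core circadian clock loop was described here through 10 genes: the activators Arntl, Clock and Npas2, the Period genes Per1, Per2 and Per3, the cryptochromes Cry1 and Cry2, and the REV-ERB genes Nr1d1 and Nr1d2. Each was found by its symbol, and all 10 had a row among the 54532 genes of the pancreas count table and the 46078 genes of the adipose count table. The genes were chosen from measured values, since their levels in the control and OA-AP libraries of both tissues were known when the set was drawn up. Their differences between those groups are therefore given as a description, with no test. Obesity-related alcohol-induced acute pancreatitis (OA-AP) was modelled in male wild-type C57BL/6J mice (C57BL/6 in the labels), aged 16 weeks, fed high-fat diet over 12 weeks and then given ethanol at 2 g/kg into the peritoneum, repeated after 1 h. Controls were of the same strain, age and genotype, ate chow and received saline. RNA was sequenced from the pancreas (2 control and 3 OA-AP libraries) and from epididymal adipose tissue (3 of each). Diet, ethanol and pancreatitis all separated the groups, so their parts in any difference cannot be told apart. Tissue was collected 12 h after the first injection from mice kept on a light period and a dark period of 12 h each. The clock time of collection, and whether the groups were collected in the same order, were not given in the sources used here. Every value is thus a reading at a single time after injection, with the phase not known. A shift in phase, a change in amplitude and a difference in collection time cannot be told apart.

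In mammals the core clock is a feedback loop of transcription. ARNTL (also called BMAL1) joins with CLOCK, or with its relative NPAS2, and activates genes through E-boxes, among them the Period and cryptochrome genes, whose proteins return to the nucleus and repress that activator. In an interlocked loop the nuclear receptors REV-ERB alpha (Nr1d1) and REV-ERB beta (Nr1d2) repress Arntl and Npas2 through ROR elements, which the ROR receptors activate, and a further arm works through D-boxes, bound by the activators DBP, TEF and HLF and the repressor NFIL3. Over a day the RNAs of Arntl and Npas2 run nearly opposite to those of Nr1d1 and Dbp, and the pancreas and adipose tissue each keep such a clock, which food intake and glucocorticoids can reset.

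The elements named above were looked for in RefSeq promoters of build GRCm38.p6, each running from 250 bases before to 50 bases after a start site. The table held 13 promoters for 9 of the 10 genes, Per2 having no entry. Shown are the 250 bases before the start site for the 4 genes whose control and OA-AP libraries did not overlap in either tissue, all on the minus strand, at chr4:151044666-151044915 (Per3), chr10:85185055-85185304 (Cry1), chr11:98775378-98775627 (Nr1d1) and chr14:18239107-18239356 (Nr1d2). Capitals mark the elements found.
Per3: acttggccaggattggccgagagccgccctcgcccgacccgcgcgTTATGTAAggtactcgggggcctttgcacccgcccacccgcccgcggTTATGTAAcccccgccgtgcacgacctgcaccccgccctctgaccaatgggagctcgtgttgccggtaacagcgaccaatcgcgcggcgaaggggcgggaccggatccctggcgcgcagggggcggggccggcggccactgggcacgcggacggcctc
Cry1: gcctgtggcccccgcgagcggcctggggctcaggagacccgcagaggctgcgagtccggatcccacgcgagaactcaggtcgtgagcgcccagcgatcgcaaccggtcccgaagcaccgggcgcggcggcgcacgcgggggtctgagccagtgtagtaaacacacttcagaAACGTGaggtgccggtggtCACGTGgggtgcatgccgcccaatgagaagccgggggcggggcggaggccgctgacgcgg
Nr1d1: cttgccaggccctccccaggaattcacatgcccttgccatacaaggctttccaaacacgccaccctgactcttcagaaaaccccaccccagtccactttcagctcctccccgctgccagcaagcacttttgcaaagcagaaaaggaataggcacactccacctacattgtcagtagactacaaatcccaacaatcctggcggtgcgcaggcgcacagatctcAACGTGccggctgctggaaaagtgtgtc
Nr1d2: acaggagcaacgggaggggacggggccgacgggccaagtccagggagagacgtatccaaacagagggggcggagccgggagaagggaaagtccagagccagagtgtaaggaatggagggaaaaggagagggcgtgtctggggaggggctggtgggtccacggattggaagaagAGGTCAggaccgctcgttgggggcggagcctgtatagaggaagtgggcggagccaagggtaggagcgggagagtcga

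Per3 carried 2 D-boxes (TTATGTAA), whose first bases lay 205 and 158 bases before the start site. A D-box of that form or the form TTACGTAA, on either strand, was in 1.06% of the 32851 promoters in the table. Cry1 carried an E-box (CACGTG) 60 bases before the start site and the related E-prime box (CACGTT, here as its reverse complement AACGTG) at 79 bases before it. E-boxes were in 7.15% and E-prime boxes in 4.68% of all promoters. The Nr1d1 promoter held an E-prime box 28 bases before the start site, and Nr1d2 held the core of a ROR element (AGGTCA) at 77 bases before it, an element core found in 16.3% of all promoters. Of the other genes, Per1 held an E-box and a ROR element core before the upstream of its 2 start sites, Cry2 an E-prime box, Clock a ROR element core before 1 of 3 start sites, and Arntl a ROR element core 32 bases after 1 of its 2. In the Npas2 window none of these letters occurred. A match describes the letters of these windows only, and the motifs do not overlap one another.

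Library totals ran from 14188832 to 17238919 counts in the pancreas and from 20825177 to 27928097 counts in adipose tissue. Levels are given as CPM, the counts as a share of a common library total, after TMM scaling, which sets libraries level on the bulk of their genes. Of all pancreas counts, 14 acinar marker genes took 55.7% and 57.2% in the controls and 43.2% to 45.9% in OA-AP, so scaling matters: the median log2 difference over all genes was 0.04 after TMM scaling and 0.75 with library totals alone (-0.01 and -0.17 in adipose tissue). The 7 adipocyte markers summed to 26340 to 26820 CPM in control and 27980 to 29870 CPM in OA-AP adipose tissue, while 3 of the 5 islet markers were at 0 there. Control replicate 2 of adipose tissue held acinar markers at 0.679% of its counts, against at most 0.0017% in the other 5 adipose libraries. In bulk tissue, fewer cells of a type and less RNA per cell cannot be told apart.

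**Figure D1:**
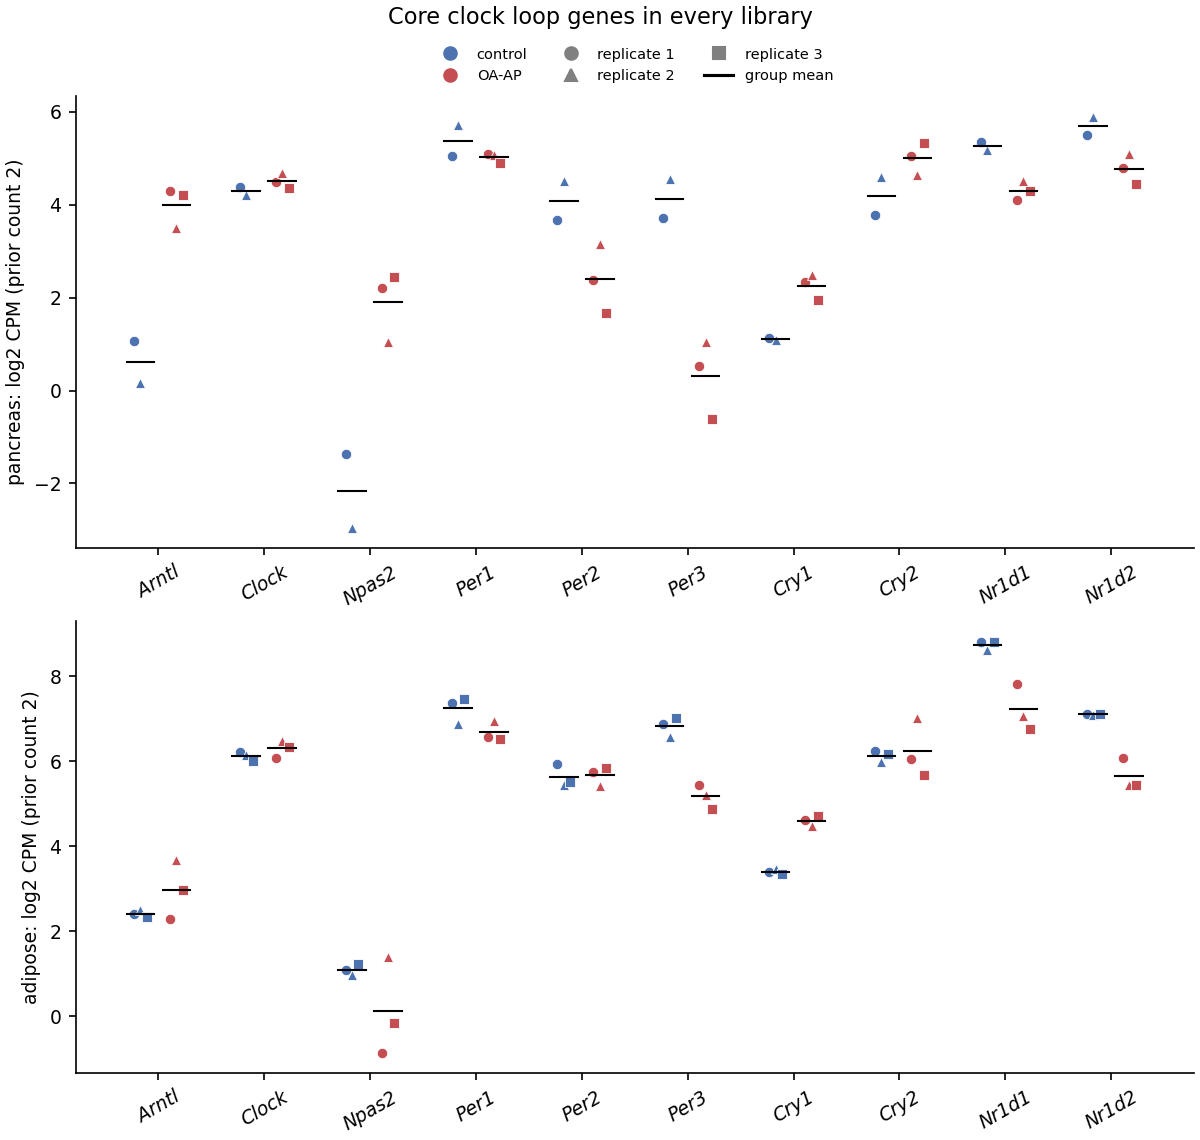
Level of the 10 core clock loop genes in every library, as log2 CPM with a prior count of 2, for the pancreas (top) and epididymal adipose tissue (bottom). Blue points are control and red points OA-AP libraries, the symbol gives the replicate and the black line the group mean. In the pancreas the OA-AP points of Arntl, Npas2, Cry1 and Cry2 all lie above the controls and those of Per2, Per3, Nr1d1 and Nr1d2 all below. In adipose tissue only Cry1 lies wholly above and only Per3, Nr1d1 and Nr1d2 wholly below.

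In the pancreas, the RNAs of the activators Arntl and Npas2 were many times higher in OA-AP than in control libraries, while Per3 and, to a lesser degree, Per2, Nr1d1 and Nr1d2 were lower. By the rule applied to all genes (edgeR, adjusted p below 0.05 with a change of 1.5-fold or more), 3 of the 10 genes were called higher (Arntl, Npas2 and Cry1) and 4 lower (Per2, Per3, Nr1d1 and Nr1d2). Of all 12884 genes tested there, 16.2% were called higher and 13.5% lower. In 4 of the 10 genes every OA-AP library was above every control, as in 32.9% of all genes, and in 4 every one was below, as in 29.4%. The median log2 fold change of the 10 genes was -0.09, against 0.04 over all genes, since the set moved both ways, and the median size of the change regardless of sign was 1.08 against 0.56. With library totals alone, the calls were 5 higher and 1 lower, and without control replicate 2 they were 2 and 2. Nothing is read from these counts, because the values they rest on chose the genes.

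In adipose tissue, Cry1 was higher, and Per3, Nr1d1 and Nr1d2 lower, in every OA-AP library than in every control, and the other 6 genes overlapped between the groups. The same rule called 1 gene higher (Cry1) and 3 lower (Per3, Nr1d1 and Nr1d2), where 12.1% of the 15839 genes tested were called higher and 13% lower. Complete separation was seen in 26.4% of all genes upward and in 26% downward. The median log2 fold change of the 10 genes was -0.27, against -0.01 over all genes, and the median size was 0.68 against 0.39. Without OA-AP replicate 2, the calls were 1 higher and 5 lower, and without control replicate 2, which held acinar RNA, 1 and 4.

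Arntl (ENSMUSG00000055116, chromosome 7, 113207465 to 113314126) encodes the activator without which the loop does not run. In the pancreas it stood at 1.97 and 0.997 CPM in the controls and at 19.6, 11.1 and 18.6 CPM in OA-AP replicates 1 to 3. The groups were far apart, and the lowest OA-AP library, replicate 2, was well above the highest control. The log2 fold change was 3.44 with a standard error of 0.38, and it was 4.04 without control replicate 1, the higher of the controls. In adipose tissue Arntl stood at 5.20, 5.55 and 4.94 CPM in the controls and at 4.82, 12.6 and 7.68 CPM in OA-AP. There OA-AP replicate 1 lay below all controls and the other two above them, and the log2 fold change was 0.68 with a standard error of 0.33. The adipose difference was smaller than the pancreatic one by 2.76 on the log2 scale, with a standard error of 0.59.

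Clock (ENSMUSG00000029238, chromosome 5, 76209868 to 76304792), the partner of ARNTL, had values that overlapped between the groups in both tissues. Its pancreas levels were 20.9 and 18.6 CPM in the controls and 22.2, 25.7 and 20.6 CPM in OA-AP, and its adipose levels were 74.6, 71.0 and 64.6 CPM in the controls and 68.0, 89.0 and 81.3 CPM in OA-AP. Its log2 fold changes were 0.21 (standard error 0.16) and 0.18 (standard error 0.12). The log2 ratio of Clock to Arntl counts within a pancreas library went from 3.81 ± 0.58 (SD, n = 2) in control to 0.51 ± 0.61 (SD, n = 3) in OA-AP.

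Npas2, which can take the place of CLOCK, was close to absent from the control pancreas, with 3 and 0 counts in the 2 libraries, or 0.257 and 0 CPM. The OA-AP libraries held 4.46, 1.95 and 5.28 CPM, all above the controls. The pooled OA-AP level was 28.6 times that of the controls, with a 95% interval of 9.65 to 139.6 that covers counting error only, since the controls held 3 counts in all against 220 in OA-AP. In adipose tissue Npas2 was at 2.03, 1.86 and 2.28 CPM in the controls and at 0.467, 2.55 and 0.808 CPM in OA-AP. There replicate 2 lay above all controls and replicates 1 and 3 well below them, so that the log2 fold change of -0.68 (standard error 0.55) became -1.68 without replicate 2.

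Per1 (ENSMUSG00000020893), a Period repressor that is also induced early by glucocorticoids and other stimuli, overlapped between the groups in both tissues. In the pancreas it stood at 33.0 and 52.4 CPM in the controls and at 33.9, 33.8 and 29.6 CPM in OA-AP. The 3 OA-AP values were close together, and the difference rested on control replicate 2: the log2 fold change was -0.39 (standard error 0.20), -0.02 without that library, and 0.34 with library totals alone. In adipose tissue the controls were at 166.2, 118.8 and 176.8 CPM and the OA-AP libraries at 95.7, 124.0 and 92.2 CPM. There only OA-AP replicate 2 reached the range of the controls, and the log2 fold change was -0.57 (standard error 0.18).

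Per2, the partner of PER1 in the repressor complex, was lower in the OA-AP pancreas and level in adipose tissue. The pancreas controls held 12.6 and 22.6 CPM and the OA-AP libraries 5.09, 8.75 and 3.03 CPM, with no overlap. The log2 fold change was -1.65 (standard error 0.45) in the pancreas. In adipose tissue the controls were at 61.3, 43.4 and 45.7 CPM and the OA-AP libraries at 54.0, 42.7 and 57.2 CPM, which overlapped, with a log2 fold change of 0.03 (standard error 0.17), or -0.12 with library totals alone. The adipose difference exceeded the pancreatic one by 1.67 on the log2 scale (standard error 0.48), or by 0.79 with library totals alone.

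Per3 (ENSMUSG00000028957), a Period gene that the daily rhythm of behaviour can do without, was the lowest of the set relative to control in both tissues. Pancreas values were 12.96 and 23.4 CPM in the controls and 1.31, 1.95 and 0.523 CPM in OA-AP. All OA-AP libraries were far below the controls, and the log2 fold change was -3.85 (standard error 0.46). Adipose values were 116.7, 95.6 and 129.9 CPM in the controls and 43.2, 37.0 and 29.7 CPM in OA-AP, again without overlap, with a log2 fold change of -1.64 (standard error 0.17). The log2 ratio of Per1 to Per3 within a library, which no library scaling can move, was 1.25 ± 0.13 (SD, n = 2) in control and 4.88 ± 0.87 (SD, n = 3) in OA-AP pancreas, and 0.42 ± 0.10 and 1.51 ± 0.32 (SD, n = 3 each) in adipose tissue.

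Cry1 (ENSMUSG00000020038), the cryptochrome that holds the activator in check late in the cycle, was higher in OA-AP in both tissues. After TMM scaling the factor was nearly the same in both. In the pancreas it was at 2.06 and 1.99 CPM in the controls and at 4.88, 5.44 and 3.71 CPM in OA-AP, with a log2 fold change of 1.20 (standard error 0.30). In adipose tissue it was at 10.44, 11.02 and 10.04 CPM in the controls and at 24.6, 22.5 and 26.1 CPM in OA-AP, with a log2 fold change of 1.21 (standard error 0.11). Replicates were close together in each group, and no groups overlapped. The tissues' differences were 0.00 apart on the log2 scale, with a standard error of 0.36. This closeness depends on the scaling: with library totals alone, the median of all genes stood at 0.75 in the pancreas and -0.17 in adipose tissue.

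Cry2, the other cryptochrome, stood at 13.6 and 23.9 CPM in the control and 33.2, 24.8 and 39.9 CPM in the OA-AP pancreas. Its highest control and lowest OA-AP library nearly met, and the log2 fold change was 0.80 (standard error 0.29). In adipose tissue it was at 75.6, 63.6 and 72.5 CPM in the controls and at 66.1, 129.5 and 51.3 CPM in OA-AP. There OA-AP replicate 2 was far above, replicate 3 below and replicate 1 within the control range, with a log2 fold change of 0.22 (standard error 0.33), or -0.26 without replicate 2. Of its exonic bases, 295 (4.7%) lie opposite those of D930015M05Rik on the other strand, and because the strand setting of the counting was not given in the sources used here, reads from the shared stretch cannot be told apart.

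Nr1d1 (chromosome 11, encoding REV-ERB alpha) was lower in every OA-AP library of either tissue than in the controls. Pancreas levels were 40.9 and 36.3 CPM in control and 17.01, 22.8 and 19.6 CPM in OA-AP. Adipose levels were 451.6, 394.5 and 452.0 CPM in control and 227.6, 135.2 and 108.2 CPM in OA-AP, where replicate 1 lay nearest to the controls. The log2 fold changes were -0.96 (standard error 0.16) and -1.46 (standard error 0.27). Nr1d1 shares 263 exonic bases (8.5% of its own) with Thra, the gene of a thyroid hormone receptor on the opposite strand, under the same limit as Cry2.

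Nr1d2, encoding REV-ERB beta, followed Nr1d1. It was at 45.2 and 59.4 CPM in the control and 27.6, 34.0 and 21.8 CPM in the OA-AP pancreas, and at 138.7, 137.2 and 137.7 CPM in the control and 67.5, 43.3 and 43.7 CPM in the OA-AP adipose tissue. The 3 adipose controls nearly coincided, and no groups overlapped. The log2 fold changes were -0.91 (standard error 0.21) and -1.42 (standard error 0.18). With library totals alone, the pancreas values of Nr1d1 and Nr1d2 shrank to -0.26 and -0.18, and Per1 was the only one of the 10 genes whose pancreas difference turned its sign.

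**Figure D2:**
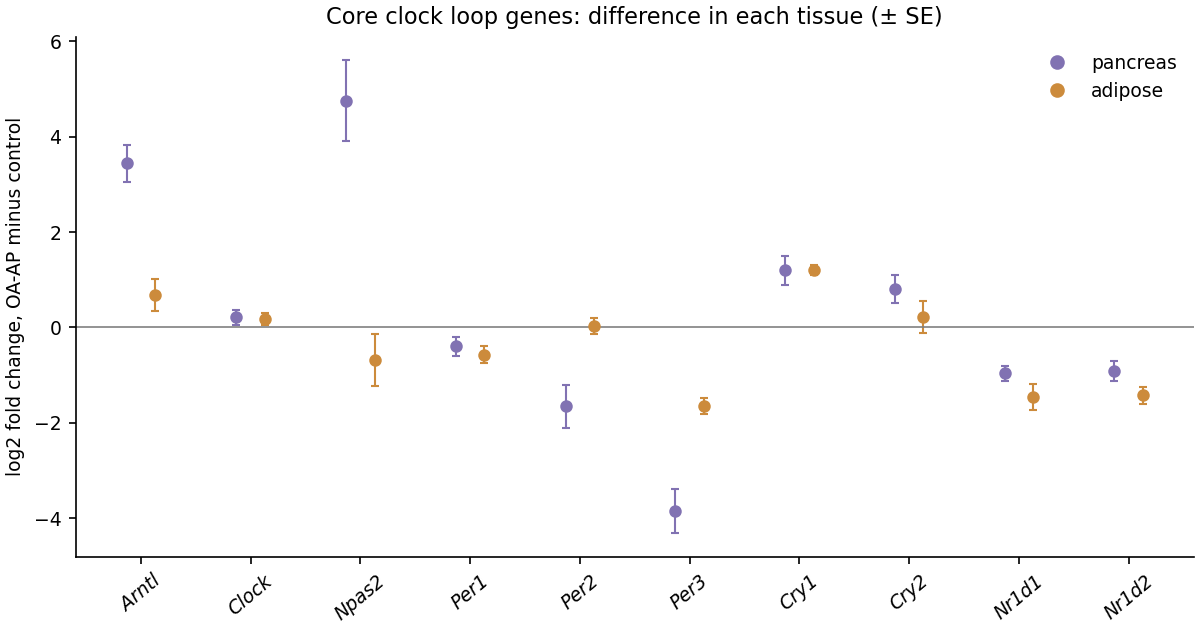
Log2 fold change of OA-AP over control for the 10 genes in the pancreas (purple) and in adipose tissue (orange), with the standard error as bars. Arntl (3.44 and 0.68), Npas2 and Per3 (-3.85 and -1.64) were farther from 0 in the pancreas, Cry1 was alike in both, and Nr1d1 and Nr1d2 were below 0 in both. All values follow TMM scaling.

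Between genes, levels were compared per length, as RPKM, the CPM divided by the gene length in kilobases. In the control pancreas Nr1d1 led with 12.6 ± 1.1 RPKM (SD, n = 2), followed by Nr1d2 and Per1, then Per2, Cry2, Per3 and Clock, then Cry1, Arntl at 0.197 ± 0.092 and Npas2 at 0.0269 ± 0.038. Nr1d2 and Per1 overlapped, as did each neighbouring pair from Per2 to Clock, while Nr1d1, Cry1, Arntl and Npas2 overlapped no neighbour. In the OA-AP pancreas Arntl had moved from rank 9 to rank 5, at 2.18 ± 0.62 RPKM (SD, n = 3), and Per3 from rank 6 to rank 10, at 0.131 ± 0.074. From Arntl through Clock, Cry1 and Per2 to Npas2 each gene overlapped the next there, so the rank of Arntl among them is not settled. Per3 did not overlap Npas2. The first 4 there, Nr1d1, Per1, Cry2 and Nr1d2, spanned 5.14 to 6.44 RPKM on average and each overlapped the next. In adipose tissue Nr1d1 was highest in both groups, at 140.6 ± 10.8 in control and 51.0 ± 20.4 RPKM in OA-AP (SD, n = 3 each), and Arntl and Npas2 were lowest in both. Per3 was at rank 4 in control and rank 8 in OA-AP, and Cry1 at ranks 8 and 6. Neighbours overlapped in control between Per1 and Nr1d2 and from Per3 through Cry2 to Per2, and in OA-AP from Per1 through Cry2, Nr1d2 and Per2 to Cry1.

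The ratio of Arntl to Nr1d1 within a library sets the activator against its repressor and does not depend on scaling. Its log2 value was -4.37 and -5.19 in the control pancreas and 0.21, -1.04 and -0.08 in OA-AP, a difference of 4.48. In adipose tissue it was -6.44, -6.15 and -6.52 in control and -5.56, -3.42 and -3.82 in OA-AP, a difference of 2.10, with no overlap in either tissue. The log2 ratio of Arntl to Per2 separated the groups in the pancreas (-3.59 ± 1.29, n = 2, and 1.63 ± 1.17, n = 3, SD) and overlapped in adipose tissue (-3.25 ± 0.30 and -2.71 ± 0.88, SD, n = 3 each). Cry1 to Cry2 ratios overlapped in the pancreas. Their adipose log2 value was -2.53 in OA-AP replicate 2, as in the highest control, while OA-AP replicates 1 and 3 were at -1.43 and -0.98.

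**Figure D3:**
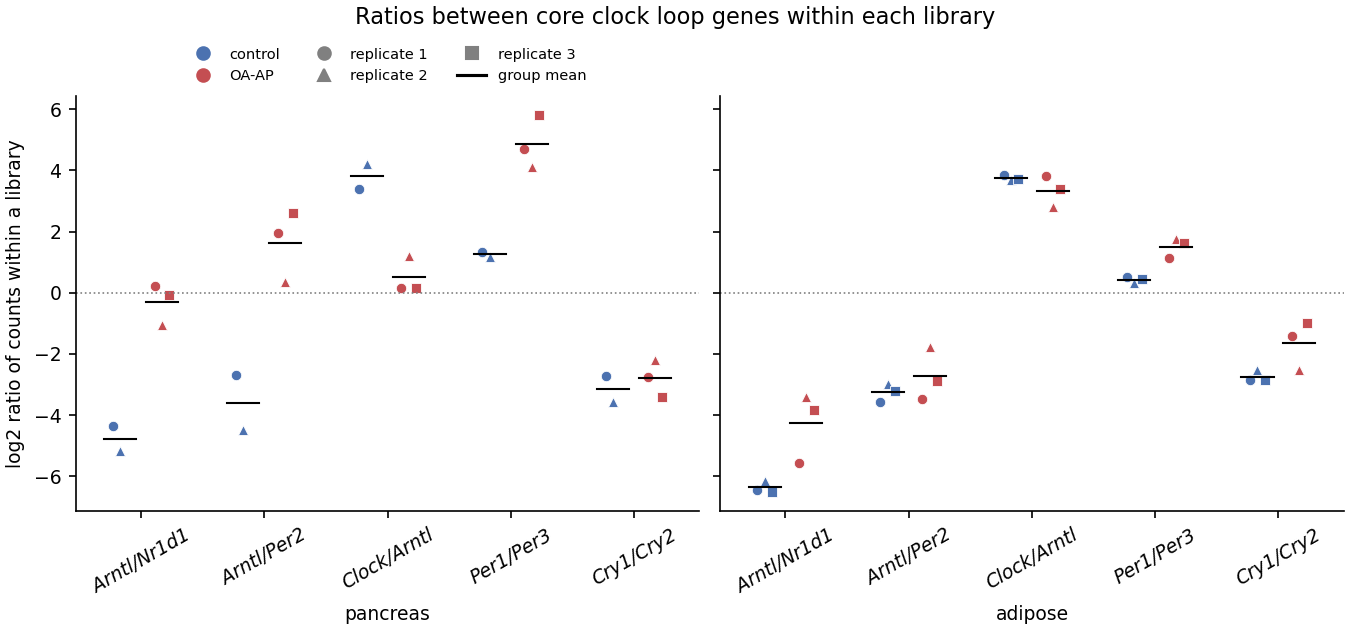
Log2 ratio of the counts of 2 core clock loop genes within each library, in the pancreas (left) and adipose tissue (right). Blue points are control and red points OA-AP libraries, symbols give the replicate and black lines the group means. Arntl/Nr1d1 lies higher in all OA-AP libraries of both tissues, and Per1/Per3 likewise, whereas Cry1/Cry2 overlaps in the pancreas.

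Libraries of the same group were not alike. Among the OA-AP pancreas libraries, replicate 2 lay nearest to the controls for Arntl, Npas2, Per2, Per3, Cry2, Nr1d1 and Nr1d2, but farthest from them for Clock and Cry1. Of the control pancreas libraries, replicate 2 was the higher for Per1, Per2, Per3, Cry2 and Nr1d2 and the lower for Arntl, Clock, Npas2, Cry1 and Nr1d1. In adipose tissue the controls were close together (SD of log2 CPM from 0.01 for Nr1d2 to 0.31 for Per1), while OA-AP replicates spread more for Npas2 (1.15), Arntl (0.69), Cry2 (0.69) and Nr1d1 (0.55). OA-AP replicate 2 was the highest of that group for Arntl, Clock, Npas2, Per1 and Cry2. The spread between replicates beyond counting error, read as the biological coefficient of variation in edgeR, was above that of 91.6% of genes for Npas2 and 88.8% for Per2 in the pancreas, and above that of 97.4% for Npas2 and 88.2% for Arntl in adipose tissue, but above that of only 13.2% for Clock and 19.9% for Cry1 in the pancreas and adipose tissue respectively.

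The wider clock was read through 34 other genes, of which 32 passed the filter on low counts in the pancreas and 33 in adipose tissue. In the pancreas 9 rose and 7 fell, against the 16.2% and 13.5% of all genes called (22 rose and 4 fell with library totals alone, and 6 genes in all were called without control replicate 2). In adipose tissue 4 rose and 5 fell, against 12.1% and 13% of all genes (3 and 6 with library totals alone). Tests used edgeR's quasi-likelihood method with Benjamini-Hochberg adjustment over all genes. This list, and those of glucocorticoid targets and cell type markers below, were also drawn up with earlier results of these data known. Their counts and p-values therefore describe the listed genes and are not independent evidence.

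Of the 11 transcription factors that feed back on the loop, the D-box activators fell in both tissues. Dbp stood at 34.7 and 61.7 CPM in the control pancreas and at 0.367, 1.60 and 0.209 CPM in OA-AP, with replicate 2 again nearest to the controls. In adipose tissue it stood at 81.1, 61.1 and 87.8 CPM in control and at 15.8, 8.32 and 6.11 CPM in OA-AP. Its log2 fold change was -6.07 in the pancreas (standard error 0.64, edgeR adjusted p = 0.00178) and -2.93 in adipose tissue (standard error 0.35, adjusted p = 0.00195). Tef was at 59.9 ± 14.5 CPM in control (SD, n = 2) and at 10.6 ± 6.9 CPM in OA-AP (SD, n = 3) in the pancreas (log2 fold change -2.50, edgeR adjusted p = 0.0152) and from 255.5 ± 36.3 to 111.5 ± 21.1 CPM (SD, n = 3 each) in adipose tissue (log2 fold change -1.20, edgeR adjusted p = 0.0026). Hlf fell by 1.83 and 2.38 on the log2 scale (edgeR adjusted p = 0.0421 and 0.000347). In the pancreas Hlf was near the floor, with 11 and 17 counts in control and 7, 9 and 4 counts in OA-AP. Nfil3, which competes for the D-box as a repressor, rose from 0.687 and 0.997 CPM to 9.71, 4.86 and 23.6 CPM in the pancreas (log2 fold change 3.92, edgeR adjusted p = 0.0238) and from 3.24 ± 0.63 to 27.1 ± 8.4 CPM (SD, n = 3 each) in adipose tissue (3.06, edgeR adjusted p = 0.000569). All 3 activators and Nfil3 were separated without overlap between the groups in both tissues. Such separation was common: 32.9% of all genes upward and 29.4% downward in the pancreas, and 26.4% and 26% in adipose tissue.

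The repressors Bhlhe41 (DEC2) and Ciart (CHRONO), which act on E-box transcription, also fell in both tissues. Bhlhe41 had log2 fold changes of -1.65 in the pancreas and -2.21 in adipose tissue (edgeR adjusted p = 0.0172 and 0.0016), and Ciart of -2.16 and -1.63 (edgeR adjusted p = 0.0126 and 0.00727). Bhlhe40 (DEC1) rose in the pancreas, where control was at 6.90 ± 0.54 CPM (SD, n = 2) and OA-AP at 16.6 ± 4.8 CPM (SD, n = 3; edgeR adjusted p = 0.00778), and had a log2 fold change of 0.56 in adipose tissue (edgeR adjusted p = 0.339). Arntl2, the paralogue of Arntl, fell in the pancreas, from 21.8 ± 3.7 to 8.95 ± 1.99 CPM (SD, n = 2 and 3; log2 fold change -1.28, edgeR adjusted p = 0.00322), opposite in sign to Arntl. In adipose tissue its log2 fold change was 0.48 (edgeR adjusted p = 0.0572). Rora (0.06 and -0.09) and Cipc (0.25 and -0.08) did not pass in either tissue, and Rorb was too low to be tested.

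Of these pancreas calls, that of Dbp was made whichever library was left out. The calls of Arntl2 and Ciart were lost without control replicate 2 (log2 fold changes -1.09 and -1.63), those of Bhlhe40 and Nfil3 without either control (1.19 and 1.35 for Bhlhe40, 3.67 and 4.2 for Nfil3), that of Bhlhe41 without control replicate 2 or OA-AP replicate 1 (-1.08 and -1.52), that of Tef without either control or OA-AP replicate 3 (-2.72, -2.23 and -2.25) and that of Hlf without either control or OA-AP replicate 1 (-2.20, -1.36 and -1.86). The adipose calls of Bhlhe41, Ciart, Dbp, Tef, Hlf and Nfil3 were made whichever library was left out.

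Of the 9 kinases, ligases and stability factors, 8 were tested in the pancreas, where 3 rose and 1 fell. All 9 were tested in adipose tissue, where 1 rose. Of all genes tested, 16.2% were called higher and 13.5% lower in the pancreas, and 12.1% and 13% in adipose tissue. The casein kinases Csnk1d and Csnk1e, which phosphorylate PER proteins, rose by 1.37 and 1.60 on the log2 scale in the pancreas (edgeR adjusted p = 0.000373 and 0.000717), and had log2 fold changes of 0.22 and -0.05 in adipose tissue. The ubiquitin ligase subunit Fbxw11, which marks PER proteins for breakdown, rose by 0.78 in the pancreas (edgeR adjusted p = 0.042), but was no longer called when any of control replicates 1 and 2 and OA-AP replicates 1 and 3 was left out (0.47 to 0.86). The deubiquitinase Usp2, itself an output of the clock, fell by 2.48 on the log2 scale in the pancreas (edgeR adjusted p = 0.000412), with a value of 0.06 in adipose tissue. Timeless rose by 1.51 in adipose tissue (edgeR adjusted p = 0.00223) and had a log2 fold change of 1.48 in the pancreas (edgeR adjusted p = 0.0536).

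Of the 8 cofactors, Crebbp, a histone acetyltransferase, and Wdr5, which binds PER complexes, rose by 0.73 and 0.99 in the pancreas (edgeR adjusted p = 0.0185 and 0.00523). Neither was called without control replicate 2 (0.54 and 0.84), nor was Crebbp without OA-AP replicate 1 (0.70), and the 8 cofactors had log2 fold changes of -0.44 to 0.55 in adipose tissue, all short of 1.5-fold. Of the 6 clock-controlled outputs, Por, the reductase that serves cytochrome P450 enzymes, rose in the pancreas (log2 fold change 6.16, edgeR adjusted p = 1.73e-05). Its pancreas values were 8.15 and 9.87 CPM in control and 632.4, 531.0 and 766.8 CPM in OA-AP. In adipose tissue, which was scaled apart from the pancreas, Por was at 611.6 ± 53.9 CPM in control and 534.8 ± 176.5 CPM in OA-AP (SD, n = 3 each). Klf10 rose in both tissues, by 2.83 and 0.72 (edgeR adjusted p = 5.82e-05 and 0.0191), the adipose call being lost without control replicate 1 or 3 or OA-AP replicate 1 (0.65, 0.68 and 0.54). Noct, a gene with a strong daily rhythm, rose by 1.03 in adipose tissue (edgeR adjusted p = 0.00938) and had a log2 fold change of 0.53 in the pancreas. In the pancreas, 2 of the 8 cofactors and 2 of the 6 outputs thus rose, against 16.2% of all genes called higher. In adipose tissue 2 of the 6 outputs rose, against 12.1% of all genes.

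Whether the difference depended on the tissue was tested for the other clock genes with a tissue by condition term over all 11 libraries. It was called for 11 of the 33 tested (24 with library totals alone), 3 with a higher and 8 with a lower log2 fold change in adipose tissue than in the pancreas, where 21.3% of all 17046 genes were called. The Dbp difference was smaller in adipose tissue (3.14 apart on the log2 scale, edgeR adjusted p = 0.0169), as was that of Usp2 (2.52, adjusted p = 0.00359), and the Arntl2 values, of which only the pancreas one passed, were 1.75 apart (adjusted p = 0.00101). Without pancreas control replicate 2, 7 genes were called, and Dbp was not among them. For Tef (adjusted p = 0.113), Nfil3 (0.579), Hlf (0.494), Bhlhe41 (0.444) and Ciart (0.603) the edgeR term did not pass.

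**Figure D4:**
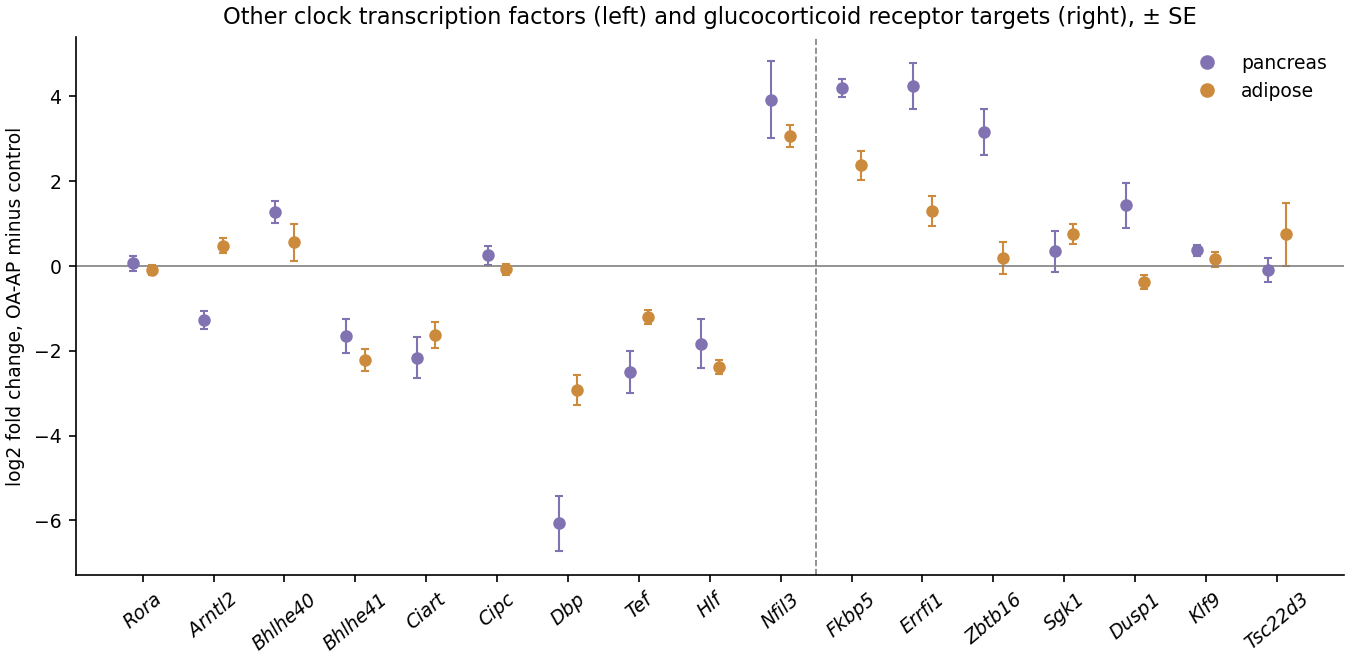
Log2 fold change of OA-AP over control, with the standard error as bars, for 10 transcription factors that feed back on the clock (left of the dashed line) and 7 glucocorticoid receptor targets (right), in the pancreas (purple) and adipose tissue (orange). Dbp, Tef, Hlf, Bhlhe41 and Ciart lie below 0 and Nfil3 above 0 in both tissues, and Fkbp5 and Errfi1 lie above 0 in both.

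Because glucocorticoids can set clock gene levels, 7 targets of their receptor were read beside the loop, against the 16.2% of all genes called higher in the pancreas and the 12.1% in adipose tissue. In the pancreas 3 rose: Fkbp5, a co-chaperone of the receptor, from 10.9 and 11.7 CPM to 235.8, 163.2 and 222.0 CPM (log2 fold change 4.2, edgeR adjusted p = 4.28e-05), Errfi1, an inhibitor of EGF receptor signalling (4.24, edgeR adjusted p = 0.00324), and Zbtb16, a transcription factor (3.17, edgeR adjusted p = 0.00882, not called without control replicate 1, at 2.72). In adipose tissue 3 rose, Fkbp5 by 2.38 (edgeR adjusted p = 0.00298), Errfi1 by 1.30 (edgeR adjusted p = 0.0308) and Sgk1 by 0.75 (edgeR adjusted p = 0.0445). Only the Fkbp5 call was made there whichever library was left out: that of Errfi1 was lost without control replicate 2 or 3 or OA-AP replicate 2 (1.25, 1.12 and 0.89), and that of Sgk1 without any library but OA-AP replicate 3 (0.45 to 0.87). With library totals alone, 5 rose in the pancreas and 2 in adipose tissue, and 5 rose in the pancreas without OA-AP replicate 2. Tsc22d3, Klf9 and Dusp1 were called in neither tissue, and Tsc22d3 reached 413.9 CPM in adipose OA-AP replicate 2 against 64.4 and 76.2 CPM in replicates 1 and 3. The part of glucocorticoid action in the levels of the 10 genes was not tested.

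Some cell type markers moved alongside. Summed over 7 genes, neutrophil markers were at 1.03 and 1.89 CPM in the control pancreas and at 13.02, 3.60 and 101.4 CPM in OA-AP replicates 1 to 3. Of the 6 tested there, edgeR called 0 (1 had an unadjusted p under 0.05) and DESeq2 called 5. The neutrophil sum ranged in adipose tissue from 6.90 to 12.8 CPM in control and from 178.9 to 197.4 CPM in OA-AP, where 6 of the 6 tested rose. The 14 acinar markers summed to 702800 and 820700 CPM in control and from 328400 to 413400 CPM in OA-AP pancreas. Of them, 11 fell, against 13.5% of all genes called lower there. These sums follow TMM scaling and are not shares of a library. As shares of all pancreas counts, the markers took 55.7% and 57.2% in control and 43.2% to 45.9% in OA-AP. No islet or fibroblast marker was called in the pancreas, and no lymphocyte marker passed the filter. There 1 of 4 duct (Epcam) and 1 of 3 adipocyte markers (Lipe) rose, against 16.2% of all genes called higher. In the same tissue 1 of 4 macrophage (Csf1r) and 1 of 4 endothelial markers (Kdr) fell. In adipose tissue 3 of 5 lymphocyte and 3 of 5 fibroblast markers fell. The other fibroblast markers, Pdgfra and Pdgfrb, had log2 fold changes of 0.39 and 0.24 and were not called. Of all adipose genes tested, 12.1% were called higher and 13% lower. The adipocyte sum, mostly Fabp4, was above the controls in every OA-AP library, while of its members Plin1, which coats lipid droplets, fell by 1.47 on the log2 scale (edgeR adjusted p = 0.00379) and Lep, the leptin gene, rose by 2.38 (edgeR adjusted p = 0.0301). Of the 5 macrophage markers, Mrc1 and Cd68 rose (1.21 and 0.64) and Csf1r fell (-0.81; edgeR adjusted p = 0.00688, 0.0413 and 0.0134). Their part in the levels of the clock genes was not tested.

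Over all 11 libraries, the genes closest to Arntl among 5238 candidates were Snx10, Ucp2, Rela, Ddit4 and Mbd1, with root mean square differences of 0.39 to 0.44 on the log2 scale, once the control mean of each gene in each tissue was set to 0. Candidates had a mean of at least 3 log2 CPM in both tissues. Their mean differences were 2.89 to 3.58 in the pancreas and 0.22 to 0.86 in adipose tissue. Closest to Nr1d1 were Cirbp, Lrig1, Mapk8ip1, Gpt2 and Vtn (0.32 to 0.36), with differences of -1.37 to -0.67 in the pancreas and -1.74 to -1.13 in adipose tissue. These are descriptions over libraries that fall into 4 groups, with no test.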

How the data were processed

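The authors trimmed the reads with Trim Galore (version 0.6.6), checked their quality with fastp (0.20.1), aligned to GRCm38 by STAR, and used featureCounts (2.0.1) to count reads for each gene. The annotation release and the strand setting were not given in the sources used here. The deposited values are raw counts per gene, 1 table for each tissue, beside a gene length in bases. Genes were kept by the filterByExpr rule of edgeR (version 4.0.16, R 4.3.3), libraries were scaled by TMM, and a robust quasi-likelihood test was fitted in each tissue, with Benjamini-Hochberg adjustment over all genes. A gene was called at an adjusted p below 0.05 with a change of 1.5-fold or more. The tissue by condition term was fitted over all 11 libraries and called at the same adjusted p. CPM values are TMM-scaled, and RPKM used the deposited gene length. The script was tested on simulated data. No 2 libraries of a group agreed within sampling noise. The labels number the samples but do not state what a replicate is, so p-values measure the spread between these samples.

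The members and the gene lists were chosen with earlier results of these data known. The 10 members and the 11 feedback transcription factors are named whatever their values, the other listed genes where called in either tissue (others only by count or where a statement needed them), and the 5 genes nearest to Arntl and to Nr1d1. Some listed items are not reported here and enter no count of the lists. Alternatives were DESeq2 (version 1.42.0), its size factors, library totals alone, TMM factors without acinar genes, other filters (none, or 10 counts in every library), no fold change threshold, each library left out in turn, and the replicate number as a block.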

Additional observations from a re-analysis of the deposited data

Results flagged for a closer look

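For 11 of the other clock genes and 4 of the glucocorticoid targets, the difference between OA-AP and control depended on the tissue by the tissue by condition term (edgeR, Benjamini-Hochberg adjustment over all genes). Each value below is the log2 fold change in adipose tissue minus that in the pancreas.

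Among the transcription factors that feed back on the loop, the values were 1.75 for Arntl2 (adjusted p = 0.00101) and 3.14 for Dbp (adjusted p = 0.0169). The Arntl2 term was called whichever library was left out. The term was lost for Dbp without pancreas control replicate 2.

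Among the kinases, ligases and stability factors, the value was -1.16 for Csnk1d (adjusted p = 0.000259) and -1.66 for Csnk1e (adjusted p = 0.000224). For the ligase subunit it was -0.88 for Fbxw11 (adjusted p = 0.0405). For Usp2 it was 2.52 (adjusted p = 0.00359). Of these 4, Fbxw11 alone lost its call when single libraries were left out, and did so for 6 of the 11.

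Among the cofactors, the value was -0.56 for Ncor1 (adjusted p = 0.0159), -0.97 for Sirt1 (adjusted p = 0.015) and -1.02 for Crebbp (adjusted p = 0.00277). Sirt1 lost its call without pancreas control replicate 2, and Ncor1 without either pancreas control. Among the outputs, it was -6.37 for Por (adjusted p = 1.14e-05) and -2.13 for Klf10 (adjusted p = 0.000215), both called whichever library was left out.

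Among the glucocorticoid targets, the value was -1.83 for Fkbp5 (adjusted p = 0.0145), -3.00 for Zbtb16 (adjusted p = 0.0145), -1.80 for Dusp1 (adjusted p = 0.0428) and -2.95 for Errfi1 (adjusted p = 0.0117). Each of the 4 lost its call without at least 1 of the pancreas controls, and Dusp1 lost it for 6 of the 11 libraries, adipose libraries among them. Of all genes tested for this term, 21.3% were called.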

How the results depend on the processing

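Limits: the pancreas has 2 controls, the groups differ in diet, ethanol and disease at once, and a single collection time gives no phase. No member that was called in a tissue changed direction in that tissue under any alternative run. With library totals alone, 26 other clock genes were called in the pancreas (16 otherwise), 24 for the tissue by condition term (11 otherwise) and 5 glucocorticoid targets in the pancreas (3 otherwise), while the median of all pancreas genes stood at 0.75. Without a fold change threshold, 14 other clock genes were called in adipose tissue (9 otherwise), and without a filter on low counts, 1 glucocorticoid target (3 otherwise). The cause was not tested. Over the fits that left out 1 library each, members called ranged from 4 to 8 in the pancreas and from 4 to 6 in adipose tissue, other clock genes from 6 to 17, from 8 to 13, and from 7 to 13 for the tissue by condition term, and glucocorticoid targets from 2 to 5 and from 1 to 3.

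Signs turned only for genes that were not called in that tissue. With 1 library left out, Rora ran from -0.10 to 0.24 in the pancreas and from -0.20 to 0.01 in adipose tissue, Cipc from -0.01 to 0.60 and from -0.14 to 0.03, and in adipose tissue Csnk1e from -0.12 to 0.02, Fbxw11 from -0.15 to 0.02, Usp2 from -0.21 to 0.33, Por from -0.43 to 0.04 and Zbtb16 from -0.23 to 0.57. Sgk1 in the pancreas ran from -0.12 to 0.70. Library totals alone gave Usp2 -0.09 in adipose tissue. Calls were also lost in the pancreas for Arntl2, Bhlhe41 and Hlf (library totals alone), Fbxw11 (the size factors of DESeq2) and Tef, Nfil3 and Zbtb16 (no filter), and in adipose tissue for Klf10 and Sgk1 (library totals alone), Sgk1 and Errfi1 (no filter) and Sgk1 (10 counts in every library).

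Same-numbered libraries showed no clear shared deviation (r between -0.16 and 0.13 across genes). With so few libraries in a group, this cannot decide whether the numbers pair the samples. With the replicate block, the members called were 7 in the pancreas and 4 in adipose tissue, and the other clock genes 14, 9 and, for the tissue by condition term, 8. Since the pairing is not known, these counts are given beside the others with no more and no less weight. The block lost the tissue by condition call of Dbp, Fbxw11, Ncor1 and all 4 glucocorticoid targets and the pancreas call of Hlf and Fbxw11. It gave -0.05 for Rora and -0.17 for Sgk1 in the pancreas.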
